A study of Mus musculus with 12 samples.

Results

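Snap25, Syt1, Syn1, Slc17a7, Nrgn, Camk2a, Gria1, Nos1, Stmn2 and Rbfox3 are 10 genes of neurons and their synapses, followed here in glial cells sorted from the mouse hippocampus. They were listed by symbol and matched to Ensembl identifiers, and all 10 were found among the 25442 genes that the astrocyte and microglia count tables have in common. The list was selected on 1 measured value, the lower Snap25 count in the CD11b libraries of AAV-A2A animals. The values of all 10 in that comparison are therefore a description and carry no test.

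The study asked how a higher level of the adenosine A2A receptor in hippocampal astrocytes acts on these and neighbouring cells. Male C57Bl6/J mice received, at 2 months of age and in the CA1 area of both hemispheres, an adeno-associated virus (AAV) carrying murine A2A receptor (AAV-A2A) or green fluorescent protein (AAV-GFP) under the astrocyte promoter GfaABC1D, so that the controls were also injected and also carried a foreign protein. At 4 months, 2 months post-injection, astrocytes were pulled from the hippocampus with magnetic beads against the surface antigen ACSA-2, and microglia with beads against CD11b from the cells that the first beads had left behind. Each fraction had 3 AAV-GFP and 3 AAV-A2A libraries, 12 in all: GFP-303, GFP-306, GFP-307, A2A-309, A2A-310 and A2A-313 for ACSA-2, and GFP-2328, GFP-2329, GFP-2331, A2A-2343, A2A-2344 and A2A-2347 for CD11b. The study's supplement counts the ACSA-2 replicates as animals. The labels do not say so for either fraction, nor whether the fractions came from the same animals, and p-values measure the spread between these libraries.

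Neurons pass signals at synapses, where vesicles filled with transmitter fuse with the membrane of the sending cell and receptors on the receiving cell open. Snap25 is a part of the SNARE complex that drives this fusion, Syt1 is its calcium sensor, Syn1 tethers vesicles, and Slc17a7 (VGLUT1) loads them with glutamate. On the receiving side Gria1 is an AMPA receptor subunit, Camk2a a kinase of synaptic plasticity, Nrgn a calmodulin-binding protein of dendrites, and Nos1 the neuronal nitric oxide synthase. Stmn2 acts on microtubules of growing axons, and Rbfox3 encodes NeuN, the antigen commonly used to mark neuronal nuclei. Slc17a7, Nrgn and Camk2a are typical of excitatory forebrain neurons, whereas hippocampal Nos1 is best known from a class of inhibitory interneurons. Astrocytes and microglia are not expected to depend on most of these genes.

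The total count on genes was 33937067 to 53206974 per library. Levels are given as CPM, a gene's count relative to the total of its library, scaled by TMM. TMM corrects for a few genes taking a large part of a library, and was run within each fraction unless stated. Adora2a, the gene delivered by the vector, had 774 to 981 counts in AAV-GFP and 27303 to 42668 in AAV-A2A ACSA-2 libraries. The 10 astrocyte markers were all called higher in ACSA-2, the most abundant being Aldoc (log2 FC 7.65 ± 0.42 SE), and the 11 microglia markers were all called lower there, the most abundant being Csf1r (-7.72 ± 0.58). A gene was called when its Benjamini-Hochberg adjusted p in edgeR's quasi-likelihood test was below 0.05 and its absolute log2 FC above 0.32. CD11b libraries GFP-2328, GFP-2329 and A2A-2347 stood apart, with 72400, 59200 and 27400 CPM of Ttr, the transthyretin made by choroid plexus epithelium, against 5.04 to 77.2 CPM in the other 3. Their microglia markers summed to 11100, 22500 and 28700 CPM, against 59100 to 79000 CPM in the others. For this reason the CD11b values of the 10 transcripts, and the counts of the wider neuronal lists, are also given by Ttr level.

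To place the 10 transcripts among each other, CPM scaled over all 12 libraries were divided by the exon length of each gene (RPKM). In ACSA-2 libraries the highest median belonged to Snap25 (1.60 RPKM, range 0.624 to 6.02 over 6 libraries), followed by Nrgn (1.39, range 1.03 to 2.08), Gria1 (1.35, range 0.765 to 2.49) and Stmn2 (1.08, range 0.556 to 1.98). Camk2a (0.973), Slc17a7 (0.771) and Syn1 (0.531) came next in median RPKM, and Syt1 and Rbfox3 both stood at 0.107. Nos1 was last with 0.00354 RPKM and a highest value of 0.00753, below the lowest Rbfox3 value of 0.0206. Every other pair of neighbours in this order had overlapping ranges. Mean RPKM of Snap25 in ACSA-2, which includes the 6.02 of GFP-306, was above that of 52.4% of the 18585 genes compared. Mean RPKM of Nos1 was above that of 0.646%. The genes compared passed a filter over all 12 libraries, so some may have been kept for their CD11b counts.

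CD11b libraries gave another order, again with overlapping ranges between all neighbours. Stmn2 had the highest median (1.32 RPKM, range 0.206 to 2.92), then Camk2a (0.871, range 0.136 to 14.1), Nrgn (0.730, range 0.0934 to 4.95) and Slc17a7 (0.558, range 0 to 9.08). Syn1 (0.420), Snap25 (0.369), Nos1 (0.244), Syt1 (0.240) and Rbfox3 (0.165) followed, and the AMPA receptor gene Gria1 was last (0.107, range 0.00944 to 0.673). The spread over libraries was wide: Camk2a had 4589 counts in GFP-2329 and 60 in A2A-2347. Gria1 was thus last by median in CD11b, and Nos1 was last in ACSA-2. Within single CD11b libraries the place of Nos1 ran from first in A2A-2347 to last in GFP-2328 and GFP-2329.

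**Figure D1:**
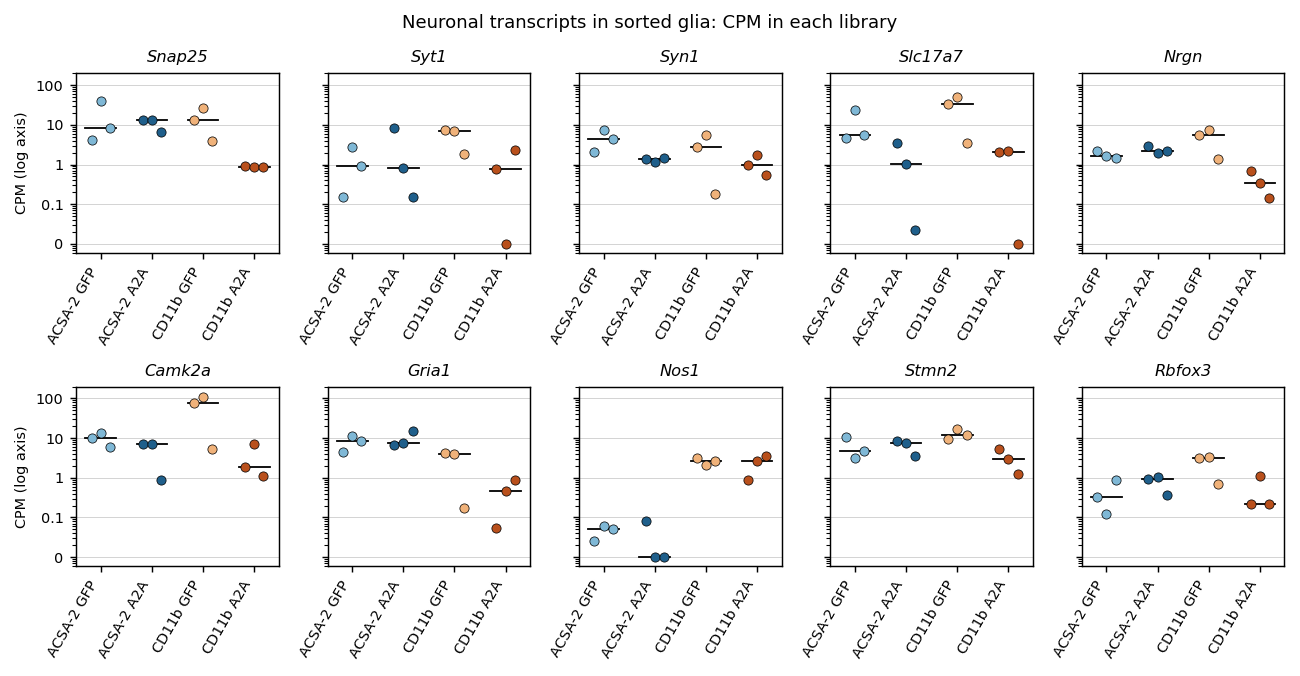
CPM of the 10 neuronal transcripts in each of the 12 libraries, by fraction and vector, on a log axis whose lowest mark stands for 0. Points are libraries and bars are medians of 3. Nos1 lies at or below 0.0832 CPM in ACSA-2 and at or above 0.872 CPM in CD11b, and Snap25 lies at 0.877 to 0.899 CPM in the 3 AAV-A2A CD11b libraries.

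The fractions were compared next, as the mean of the ACSA-2 groups against the mean of the CD11b groups over all 12 libraries. Of the 18602 genes tested, 54.1% were called, and of the 10 neuronal transcripts 3 were. Nos1 was lower in ACSA-2, while Gria1 and Snap25 were higher. The CD11b values of Snap25 chose the list, so its call is a description. The median log2 FC was -0.10 over the 10 and -0.13 over all genes tested. It was -1.31 over the 10 within AAV-GFP libraries and 0.76 within AAV-A2A libraries, the latter from libraries that entered the choice of the list, beside -0.11 and -0.05 over all genes. Without the libraries rich in Ttr it was 0.82, beside 0.26 over all genes, in a fit with a single AAV-GFP CD11b library. Since each fraction was pulled with its own beads, cell type and sorting step cannot be told apart. A share of 3 in 10, with Snap25 counted, was below the share of all genes called.

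Nos1 separated the fractions most widely. It had 1, 2 and 2 counts in GFP-303, GFP-306 and GFP-307, against 3, 0 and 0 in A2A-309, A2A-310 and A2A-313, that is, no library above the floor of 3 counts used here for detection. CD11b libraries had 164, 92 and 104 counts with AAV-GFP and 32, 92 and 191 with AAV-A2A. The log2 FC was -6.02 ± 0.92 (edgeR adjusted p = 2.28e-04), a fitted value that depends on how counts near 0 are handled. A lower bound was taken from CPM scaled over all 12 libraries. Against the highest value that 3 counts make in an ACSA-2 library, the CD11b mean was at least 27.4-fold higher. The lowest CD11b library was at least 10.2-fold higher. All 6 ACSA-2 libraries were below all 6 CD11b libraries, as for 15.8% of genes. Nos1 was called within AAV-GFP libraries (log2 FC -5.75 ± 1.28, adjusted p = 0.00697, with 26.7% of genes called). It was also called within AAV-A2A libraries (-6.29 ± 1.32, adjusted p = 0.00250, with 46% called), which entered the choice of the list. The gene lies at chr5:117781032-117958840 on the plus strand, and 268 of its 11151 exon bases are shared with Gm26995 on the opposite strand; these libraries do not mark strand, so reads there cannot be assigned to either.

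Gria1, which encodes the GluA1 subunit, was the clearest in the other direction. Its CPM were 4.53, 11.2 and 8.52 in GFP-303, GFP-306 and GFP-307, against 6.65, 7.66 and 15.3 in A2A-309, A2A-310 and A2A-313. In CD11b they were 4.28, 3.94 and 0.178 in GFP-2328, GFP-2329 and GFP-2331, and 0.0545, 0.453 and 0.884 in A2A-2343, A2A-2344 and A2A-2347. All ACSA-2 libraries lay above all CD11b libraries, as for 15.8% of genes, although GFP-303 exceeded GFP-2328 only slightly. Scaled over all 12 libraries, the lowest ACSA-2 value was 4.62 CPM and the highest CD11b value 4.07 CPM. The log2 FC was 3.01 ± 0.74 (adjusted p = 0.00503), with 1.60 ± 0.99 within AAV-GFP libraries (adjusted p = 0.252) and 4.43 ± 1.12 within AAV-A2A libraries (adjusted p = 0.00721, from libraries that entered the choice of the list). The fit without the 3 CD11b libraries rich in Ttr has a single AAV-GFP CD11b library, GFP-2331, with 7 counts of Gria1. Its AAV-A2A CD11b libraries, A2A-2343 and A2A-2344, entered the choice of the list, so no call is read from it.

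Snap25 was higher in ACSA-2 by a log2 FC of 1.99 ± 0.59 over all libraries. Within AAV-GFP libraries the difference was 0.33 ± 0.79 (adjusted p = 0.789), where ACSA-2 held 17.6 ± 20.0 CPM (SD, n = 3) and CD11b 14.6 ± 11.5 CPM. Within AAV-A2A libraries it was 3.64 ± 0.89, from 11.2 ± 4.02 CPM in ACSA-2 against 0.887 ± 0.0114 CPM in CD11b. The list was drawn up from the last of these groups, so the overall call is in part what was chosen and is given as a description.

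The other 7 were not called between fractions. Their log2 FC were 0.60 ± 0.53 for Nrgn, 0.51 ± 0.68 for Syn1, -0.01 ± 0.46 for Stmn2, -0.19 ± 1.1 for Syt1, -0.64 ± 1.06 for Slc17a7, -0.93 ± 0.74 for Rbfox3 and -1.03 ± 0.72 for Camk2a. With standard errors of this size, that they were not called does not show that they were alike in the fractions. Without the 3 libraries rich in Ttr, the log2 FC of Syn1 was 2.27, in a fit where the median of all genes rose by 0.39. That fit has a single AAV-GFP CD11b library, GFP-2331, with 7 counts of Syn1. Its AAV-A2A CD11b libraries, A2A-2343 and A2A-2344, entered the choice of the list, so no call is read from it.

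**Figure D2:**
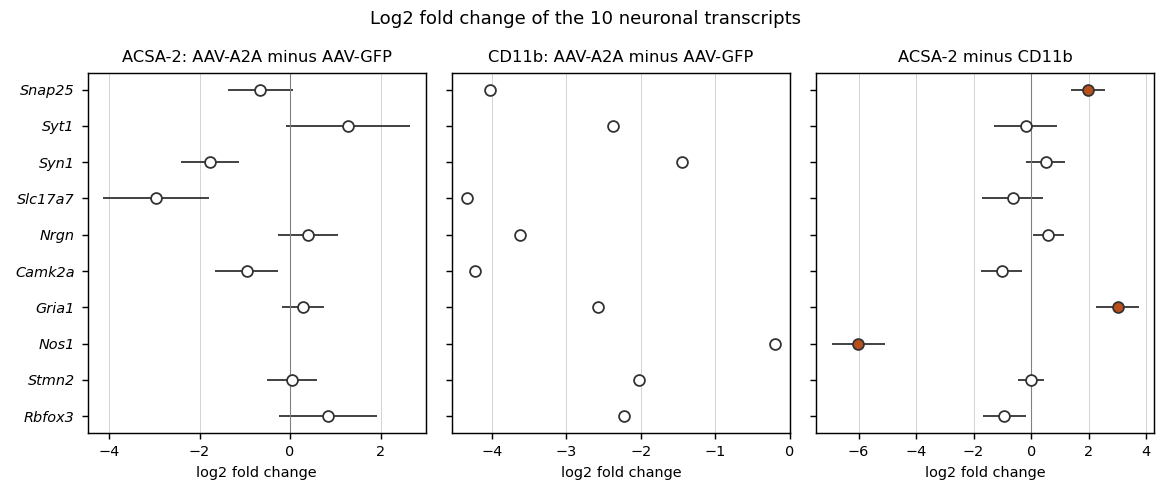
Log2 fold change of the 10 transcripts for vector in ACSA-2, vector in CD11b and fraction. Bars are standard errors and filled points are called genes; the CD11b vector panel has no errors or calls because that comparison chose the list, and Nos1 was too low for a fit in ACSA-2. All 10 points lie below 0 in the CD11b vector panel, against 4 of 9 in the ACSA-2 vector panel.

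The next question was whether astrocytic A2A receptor changed these transcripts in the ACSA-2 fraction itself, a comparison that did not enter the choice of the list. Of 16451 genes tested, 3.36% were called, 0.176% higher and 3.19% lower, and of the 9 neuronal transcripts tested 0 were. DESeq2 called 4.01% of genes and also 0 of the 10. At an unadjusted p below 0.05 edgeR gave 2, Syn1 and Slc17a7, where 13% of all genes passed. The median log2 FC was 0.04 over the 9 and 0.02 over all genes, with 5 above 0 and 4 below. Nos1 was not tested here, as its counts were too low.

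Syn1 and Slc17a7, both of the presynaptic vesicle, were the pair whose vector groups did not overlap in ACSA-2, with AAV-A2A lower, as was the case for 10.9% of genes. Syn1 had 2.03, 7.45 and 4.30 CPM in GFP-303, GFP-306 and GFP-307, against 1.41, 1.16 and 1.46 in A2A-309, A2A-310 and A2A-313 (log2 FC -1.77 ± 0.65, adjusted p = 0.253). For Slc17a7 the same libraries gave 4.78, 24.1 and 5.71 CPM against 3.41, 1.02 and 0.0221 (log2 FC -2.97 ± 1.17, adjusted p = 0.303). The A2A-313 value is 1 count, below the floor. Without GFP-306 the log2 FC was -1.83 for Slc17a7 and -1.23 for Syn1, and without A2A-309 that of Slc17a7 was -4.47. Neither passed the correction over all genes. Syn1 shares 9 exon bases with Araf on the opposite strand, and Timp1 lies within its locus.

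The upstream sequences of both genes are shown because these are the members whose vector groups were apart in a comparison that did not choose them, and because synapsin is a textbook target of REST, a repressor that keeps neuronal genes silent in other cells by binding the RE1 element. Both come from the RefSeq promoter table of GRCm38.p6, which held 6 of the 10 genes (Syn1, Slc17a7, Syt1, Nrgn, Rbfox3 and Nos1), and were read 5′ to 3′ on the gene's strand, ending before any annotated transcript start. Capitals in Syn1 (chrX:20921005-20921168, minus strand) mark the left part of the RE1 consensus, TTCAGCACC, and the cyclic AMP response element TGACGTCA. Capitals in Slc17a7 (chr7:45163671-45163920, plus strand) mark the right part of RE1, GGACAG.
Syn1: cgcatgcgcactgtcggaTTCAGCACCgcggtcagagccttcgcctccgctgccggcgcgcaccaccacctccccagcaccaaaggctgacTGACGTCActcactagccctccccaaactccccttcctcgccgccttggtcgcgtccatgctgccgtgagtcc
Slc17a7: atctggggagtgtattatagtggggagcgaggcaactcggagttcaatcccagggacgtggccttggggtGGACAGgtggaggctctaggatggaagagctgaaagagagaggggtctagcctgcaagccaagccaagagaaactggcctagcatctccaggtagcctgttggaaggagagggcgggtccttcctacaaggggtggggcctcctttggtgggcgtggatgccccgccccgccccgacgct

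Over the 250 bases before the start of 32851 promoters, searched on both strands, TTCAGCACC was found in 0.301%, TGACGTCA in 1.55% and GGACAG in 18.7%. Of the 6 neuronal genes with an entry, Syn1 alone held TTCAGCACC and TGACGTCA, and Slc17a7 and Syt1 held GGACAG. These are matches of letters and no evidence that a factor was bound.

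The remaining members showed no common direction between the vectors in ACSA-2. Snap25 had 4.15, 40.5 and 8.10 CPM in GFP-303, GFP-306 and GFP-307, against 13.4, 13.5 and 6.51 in A2A-309, A2A-310 and A2A-313, with a log2 FC of -0.66 ± 0.72 (adjusted p = 0.813) that turned to 0.86 without GFP-306. Camk2a gave 10.2, 13.5 and 6.08 against 7.21, 7.26 and 0.864 CPM (log2 FC -0.96 ± 0.69). Nrgn was the most even, with 1.79 ± 0.408 CPM against 2.36 ± 0.559 CPM (SD, n = 3; log2 FC 0.40 ± 0.66). All 3 overlapped between vectors.

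Syt1 was carried by single libraries, with 0.150, 2.70 and 0.944 CPM in AAV-GFP and 8.32, 0.828 and 0.155 CPM in AAV-A2A (log2 FC 1.29 ± 1.37, and -1.36 without A2A-309). Gria1 (0.29 ± 0.46), Stmn2 (0.04 ± 0.56) and Rbfox3 (0.84 ± 1.09) had log2 FC within 1 standard error of 0. For Gria1 and Stmn2 the sign changed when single libraries were left out. GFP-306 was the highest ACSA-2 library for Snap25, Camk2a, Slc17a7 and Syn1 but the lowest for Stmn2 and Rbfox3, so that the transcripts did not rise together even within 1 library.

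In CD11b libraries, AAV-A2A against AAV-GFP is the comparison that chose the list, and its values are given without a test. By edgeR 0 of the 16949 genes tested were called, 0% of the total, although 2704 (16%) had an unadjusted p below 0.05, and DESeq2 called 201 of 30266, which is 0.664%. Snap25 had 13, 26.7 and 3.96 CPM in GFP-2328, GFP-2329 and GFP-2331, and 0.899, 0.877 and 0.884 in A2A-2343, A2A-2344 and A2A-2347, a log2 FC of -4.03. The AAV-A2A libraries were all lower and nearly alike, on 33, 31 and 48 counts.

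Nrgn followed the same order, with 5.62, 7.37 and 1.37 CPM in the AAV-GFP libraries and 0.681, 0.339 and 0.147 CPM in the AAV-A2A libraries (log2 FC -3.62). For Slc17a7 the values were 33.3, 50.2 and 3.58 CPM against 2.10, 2.23 and 0 CPM (log2 FC -4.33), the last from a library with 1489147 counts of Ttr in which no read of this glutamate transporter was counted. Stmn2 had 9.72, 16.8 and 11.8 CPM against 5.29, 2.91 and 1.25 CPM (log2 FC -2.02). These 4 did not overlap between vectors, with AAV-A2A lower, as for 10.9% of genes, and nothing is read from this count.

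The other 6 overlapped. Camk2a reached 78.3 and 108 CPM in GFP-2328 and GFP-2329 but 5.30 in GFP-2331, against 1.91, 7.21 and 1.1 CPM in A2A-2343, A2A-2344 and A2A-2347 (log2 FC -4.23). Syt1 had 7.33, 6.97 and 1.83 against 0.790, 0 and 2.30 CPM, and Rbfox3 3.17, 3.43 and 0.710 against 0.218, 1.13 and 0.221 CPM. Syn1 had its lowest value, 0.178 CPM on 7 counts, in the AAV-GFP library GFP-2331. Nos1 stayed level, with 3.23, 2.16 and 2.64 against 0.872, 2.60 and 3.52 CPM, and its log2 FC of -0.20 was the nearest to 0 of the 10. In all, the log2 FC ran from -4.33 to -0.20 with a median of -2.48, beside -0.05 over all genes tested. That median was -0.66 among the 3 libraries poor in Ttr and -3.63 among the 3 rich in it. In a bulk library fewer cells of a type and less RNA per cell cannot be told apart.

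Libraries GFP-2328 and GFP-2329 were the highest for 8 of the 10 transcripts and were also rich in Ttr, so the split by choroid plexus signal was set beside the split by vector. The 8 choroid plexus markers summed to 110 to 78400 CPM in AAV-GFP and 11.1 to 32600 CPM in AAV-A2A. A2A-2347 is rich in this signal and carries AAV-A2A. It had the lowest Camk2a, Slc17a7 and Nrgn of the 3 AAV-A2A libraries, and its Snap25 was level with the Ttr-poor A2A-2343 and A2A-2344. Among the 3 libraries rich in Ttr, AAV-A2A minus AAV-GFP on the log2 CPM scale was -4.33 for Snap25, -9.79 for Slc17a7, -6.32 for Camk2a and -5.06 for Nrgn. Among the 3 poor in Ttr it was -2.10, -0.71, -0.51 and -1.42. Syn1 turned from -2.75 among the rich to 2.56 among the poor, Gria1 went from -2.16 to 0.00, and Nos1 from 0.41 to -0.78. Stmn2 (-3.30 and -1.58), Rbfox3 (-3.65 and -0.44) and Syt1 (-1.62 and -3.25) stayed below 0 in both. In each subset at least 1 vector is a single library.

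Gria1 and Syt1 behaved otherwise. All 3 libraries rich in Ttr were above all 3 others for these genes, A2A-2347 included, as was the case for 20.6% of all genes tested. Syt1 had 2.30 CPM in A2A-2347 against 1.83 CPM in GFP-2331, and Gria1 0.884 against 0.178 CPM. None of the other 8 had all Ttr-rich libraries on the same side of the others.

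**Figure D3:**
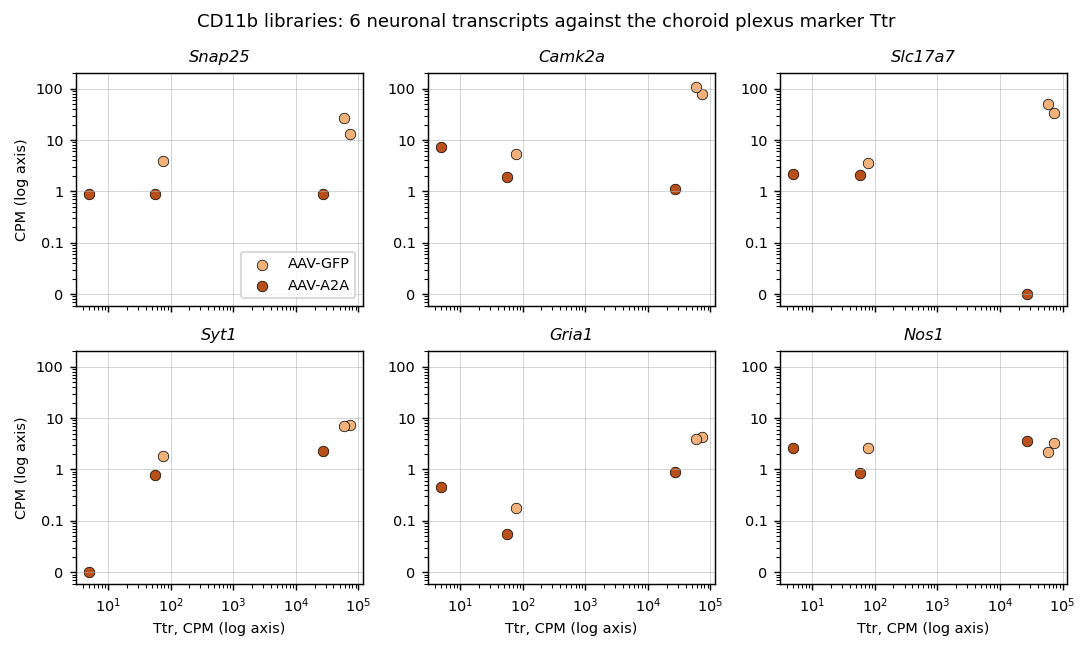
CPM of 6 neuronal transcripts against CPM of Ttr in the 6 CD11b libraries, both on log axes, with the lowest vertical mark standing for 0. The AAV-A2A library with 27400 CPM of Ttr is low for Snap25, Camk2a and Slc17a7 but above the Ttr-poor libraries for Syt1 and Gria1.

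Markers of some other cell types differed between the vector groups in CD11b without overlap of their sums, although no gene was called by edgeR. The 5 red cell genes summed to 988 to 6140 CPM in AAV-GFP and 61.6 to 242 CPM in AAV-A2A, and the 8 endothelial genes to 763 to 2310 CPM against 485 to 588 CPM. Within the endothelial list, Pecam1 (log2 FC 0.06), Cdh5 (-0.02) and Slco1a4 (-0.38) overlapped between vectors. Ependymal genes, 8 in number, summed to 220 to 599 CPM against 45 to 205 CPM. Of these, Foxj1 (log2 FC -0.81), Dynlrb2 (-2.13), Rsph1 (-1.79), Mia (-2.96) and Pifo (-1.9) overlapped between vectors. Lower in AAV-A2A without overlap were 4 of 5 red cell genes, 5 of 8 endothelial genes and 3 of 8 ependymal genes, beside 10.9% of all genes. The sums of the other non-neuronal lists overlapped. The 11 microglia markers ran from 11100 to 75900 CPM against 28700 to 79000 CPM, and the 10 astrocyte markers from 353 to 418 CPM against 293 to 544 CPM. Taken singly, all 11 microglia markers had a log2 FC above 0 (median 0.53, beside -0.05 over all genes). Border macrophage (6 genes) sums were 48.7 to 203 against 159 to 257 CPM, oligodendrocyte (8 genes) sums 151 to 269 against 214 to 269 CPM, and precursor (6 genes) sums 57.2 to 77.1 against 67.1 to 137 CPM. The most abundant gene of each list was above 0 in all libraries, and a choroid plexus marker in A2A-2344 and an oligodendrocyte marker in 4 libraries were at 0. Their part in the neuronal differences was not tested.

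The genes nearest to Snap25 by the pattern over the 6 libraries of a fraction were looked up among genes of at least 5 CPM, with the root mean square difference of centred log2 CPM as the measure. In CD11b these were Hpca (0.54), which encodes the hippocampal calcium sensor hippocalcin, Ctla2a (0.54), Pcsk1n (0.55), a granule protein of neuroendocrine cells, and the adult globin genes Hbb-bs (0.67) and Hbb-bt (0.69), out of 11151 genes. Hbb-bs and Hbb-bt are near-identical copies whose counts are uncertain. Hbb-bs had 1210, 3520 and 524 CPM in GFP-2328, GFP-2329 and GFP-2331 and 107, 78.7 and 31.4 CPM in A2A-2343, A2A-2344 and A2A-2347. Among the members themselves Nrgn was nearest (0.59), then Camk2a and Rbfox3 (both 1.03), and Slc17a7 was the farthest (2.02).

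In ACSA-2 the 5 nearest, out of 10767 genes, were Dbndd1 (0.35), Ephx4 (0.39), Vps13a, Ang and Dnaaf1 (0.40 each). All share with Snap25 their highest value in GFP-306 and their lowest in GFP-303. None of these 5 is in the neuronal lists used here, and of the members the nearest was Nos1 (0.96), on 8 counts in all, then Syn1 and Gria1 (both 0.98). The measure is a description over 6 libraries, with no test.

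The make-up of the neuronal signal was followed as each gene's share of the summed RPKM of the 10. The sum was 6.12 to 18.6 RPKM in ACSA-2 and 1.42 to 38.8 RPKM in CD11b. Camk2a led in GFP-2328 (38.2%) and GFP-2329 (36.3%) and in A2A-2344 (29.5%), Stmn2 in GFP-2331 (37.3%) and A2A-2343 (35%), and Nos1 in A2A-2347 (20.4%). In ACSA-2 the leading gene was Stmn2 in GFP-303 (24.9%), Snap25 in GFP-306 (32.4%) and A2A-310 (25.8%), Gria1 in GFP-307 (17.9%) and A2A-313 (40.7%), and Nrgn in A2A-309 (21.0%). Camk2a took 9.47 to 38.2% in CD11b and 1.85 to 17.5% in ACSA-2, and Gria1 0.334 to 9.46% against 9.61 to 40.7%. The mixture thus differed from library to library, and no gene led in all libraries of a fraction or vector.

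**Figure D4:**
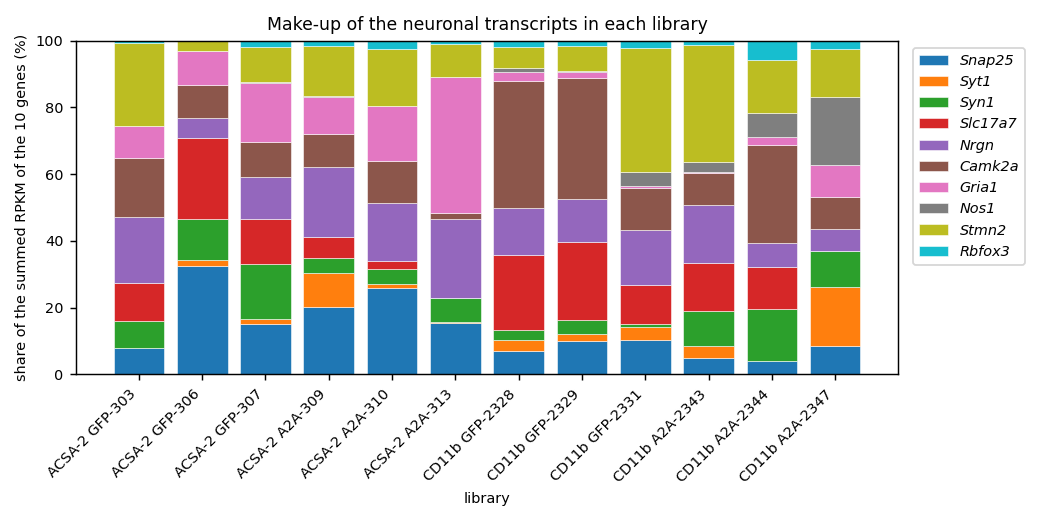
Share of each gene in the summed RPKM of the 10 neuronal transcripts, by library, in percent. Camk2a takes 38.2% in CD11b library GFP-2328, Gria1 40.7% in ACSA-2 library A2A-313, and Nos1 20.4% in CD11b library A2A-2347.

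A wider set of 110 neuronal genes in 7 lists was read beside the 10, of which 106 were in both tables. Several are also made by glia, such as Syt11 in astrocytes and Ptk2b in microglia, and 11 of the 106 had over 50 CPM on average in ACSA-2 and 6 in CD11b. Between the vectors in ACSA-2, 89 were tested, 1 was called higher and 4 lower, where 0.176% and 3.19% of all genes were, and the median log2 FC was 0.03 beside 0.02 for all genes. Nsf, the ATPase that takes SNARE complexes apart, fell from 287 ± 78.6 to 82.8 ± 17.2 CPM (SD, n = 3; log2 FC -1.80 ± 0.25, adjusted p = 0.00465). Pclo, the active zone scaffold Piccolo, fell from 39.6 ± 13.5 to 11.9 ± 2.07 CPM (-1.73 ± 0.31, adjusted p = 0.0153). Of the 23 tested genes of the release machinery, whose median was -0.39, 3 were called lower, against 3.19% of all genes. Nos1ap, an adaptor of Nos1, also fell (-2.09 ± 0.28, adjusted p = 0.00406), and Gria2, the AMPA receptor partner of Gria1, rose from 47.6 ± 11.6 to 115 ± 41.4 CPM (1.27 ± 0.28, adjusted p = 0.0415). The calls of Pclo and Gria2 were lost when any of several single libraries was left out. The summed markers of oligodendrocyte precursors were 368 to 570 CPM in AAV-GFP and 159 to 331 CPM in AAV-A2A. Of the 4 tested 1 was called, Cspg4 at 255 ± 59.7 against 56.5 ± 12.7 CPM. The other tested markers, Olig1 (log2 FC -0.26 ± 0.32), Olig2 (0.06 ± 0.45) and Pdgfra (-0.39 ± 0.42), were not called and overlapped between vectors. The part of precursor transcripts in the calls above was not tested.

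These 5 called genes were expressed in ACSA-2 at 37.2 to 287 CPM on average in AAV-GFP libraries, while the 9 tested members were at 0.436 to 17.6 CPM. In CD11b, where 155 ± 28.7 CPM of Nsf were found with AAV-GFP, its vector groups overlapped. The lists of excitatory identity, cytoskeleton and axon, RNA binding and ion channel genes had no call between vectors in ACSA-2, with median log2 FC of -0.34, 0.09, 0.19 and -0.08. Between the vectors in CD11b, 72 of 89 tested genes had a log2 FC below 0 (median -1.06, beside -0.05 over all genes), and 22 did not overlap with AAV-A2A lower, where 10.9% of all genes did so. Among the 3 libraries rich in Ttr 88 of 104 had a log2 FC below 0 (median -2.17), and among the 3 poor in Ttr 47 of 86 (median -0.07). By mean log2 CPM, 44 of the 89 were lower in both subsets, a count whose share over all genes was not computed. For 22 all libraries rich in Ttr were above the others, as for 20.6% of all genes tested, and for 3 all were below. As with the 10, this is a description.

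Between fractions 101 of the 110 were tested, with 33 called higher in ACSA-2 and 7 lower, beside 24.6% and 29.4% of all genes. Higher in ACSA-2 were 10 of 24 release genes, 5 of 19 postsynaptic genes, 3 of 10 inhibitory identity genes and 6 of 15 cytoskeleton genes. So were 2 of 13 excitatory identity genes, 4 of 13 RNA binding genes and 3 of 7 ion channel genes. Called lower were 3 release genes and 1 gene each of the excitatory, inhibitory, cytoskeleton and RNA binding lists. By the most abundant gene of a list, Syt11, a synaptotagmin, was higher in ACSA-2 (log2 FC 4.06 ± 0.21, adjusted p = 1.41e-07), as were Nsg1 (3.87 ± 0.31, adjusted p = 3.31e-06), the ubiquitin hydrolase Uchl1 (2.19 ± 0.33, adjusted p = 1.95e-04) and the sodium channel Scn8a (4.17 ± 0.55, adjusted p = 8.54e-05). Ptk2b, a calcium-sensitive tyrosine kinase, was lower (-5.82 ± 0.45, adjusted p = 2.58e-06). Ppp3ca, the calcineurin catalytic subunit (-0.21 ± 0.23), and Nos1ap (-0.40 ± 0.22) were not called over all libraries, although Nos1ap was called lower within AAV-A2A libraries (-1.30, adjusted p = 0.00627). The median over the 101 was 0.84. It was 0.32 within AAV-GFP libraries (20 called higher and 7 lower), where 26.7% of all genes were called. Within AAV-A2A libraries, which entered the choice of the list, it was 1.81 (30 and 6), where 46% of all genes were called. The medians over all genes were -0.11 and -0.05. Without the libraries rich in Ttr the median of the neuronal genes was 2.03, beside 0.26 over all genes. That fit has a single AAV-GFP CD11b library. For comparison, the most abundant genes of the remaining other-cell lists had log2 FC between fractions of -4.98 ± 1.70 (Ttr), -1.74 ± 0.45 (F13a1), 0.60 ± 0.44 (Hbb-bs), 0.67 ± 0.32 (Itm2a), 1.06 ± 0.27 (Cspg4), 1.60 ± 0.29 (Cnp) and 3.74 ± 0.44 (Ccdc153).

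**Figure D5:**
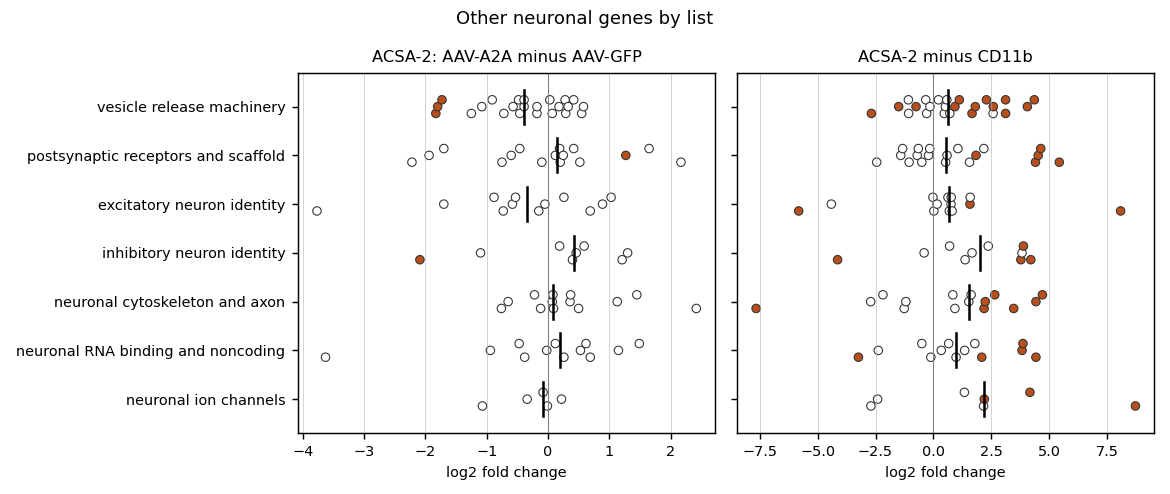
Log2 fold change of the other neuronal genes by list, for vector in ACSA-2 and for fraction. Each point is a gene, filled where called, and bars are list medians. Between vectors 5 of 89 genes are filled, 3 of them low points of the release machinery list, and between fractions 40 of 101 are filled, 33 of them above 0.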

How the data were processed

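RNA from ACSA-2 and CD11b fractions was amplified as full-length cDNA and sequenced in single-end mode. The authors trimmed reads with cutadapt 1.10 (reads under 40 bases dropped), aligned them with STAR 2.5.3 to mm10 (GRCm38), and deposited raw read counts per Ensembl gene from HTSeq 0.6.1p1, with reads on several genes discarded. No molecular identifiers were used, so the floor of 3 counts covers counting error only. A strand setting is not given in the sources used here. No table columns were left unmapped to a sample (0).

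Groups were taken from the labels. The 12 libraries differed beyond sampling noise (lowest chi-square per degree of freedom between replicates 51.6). Counts were tested with edgeR 4.0.16 in R 4.3.3 (TMM, filterByExpr, robust quasi-likelihood), each fraction separately for vector and all 12 libraries for fraction. Standard errors are the absolute log2 FC divided by the square root of F. Alternatives were DESeq2 1.42.0, other scaling, no filter, at least 10 counts in every library, all 12 libraries, fits within a vector, and each library left out. Log2 CPM used a prior count of 2. Scripts were tested on simulated data. RPKM used GENCODE exon lengths and TMM over all 12 libraries. Figures were drawn with matplotlib 3.10.9.

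The members and lists were chosen with earlier results of these data known. All 10 members are named, with the most abundant gene of each list, up to 5 other neuronal genes called in ACSA-2, and the 5 nearest patterns to Snap25 per fraction. A gene that the rule would name (1) has been left out of the text. GFP-2328, GFP-2329 and A2A-2347 were set apart by Ttr after seeing the data.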

Additional observations from a re-analysis of the deposited data

How the results depend on the processing

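No paired analysis was possible because the groups compared share no replicate numbers in the labels. The count of members called in ACSA-2 stayed at 0 under every alternative run. The members called between fractions numbered 3, Snap25 among them, in each of the 12 fits without 1 library. In these fits 47.1% to 50.7% of all genes were called. With at least 10 counts in every library 1 of 3 testable was called, where 63.9% of genes were. It was Snap25, whose CD11b values chose the list. Within AAV-GFP 1 (Nos1) was called, where 26.7% of genes were. Within AAV-A2A 4 were called (Nrgn added, in the libraries that chose the list), where 46% of genes were. The fit without the Ttr-rich libraries had a single AAV-GFP CD11b library, and its calls are not counted here. Genes called between vectors in CD11b went from 0 to 201 with DESeq2 and stayed at 0 in the 6 fits without 1 library. The median log2 FC of the members in CD11b was -0.66 in the 3 libraries poor in Ttr, -3.63 in the 3 rich in it, and -3.32 to -2.16 without 1 library. Total counts in place of TMM moved the median of all genes in CD11b by -0.12.

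None of the values that changed sign was called over all libraries or under the setting that turned it; within AAV-A2A, Nrgn (2.56) and Nos1ap (-1.30) were called. Leaving out 1 library in ACSA-2 gave a log2 FC of -1.14 to 0.86 for Snap25 (positive without GFP-306), -1.36 to 2.49 for Syt1 (negative without A2A-309), -0.18 to 0.60 for Gria1 and -0.29 to 0.70 for Stmn2. Between fractions it gave -1.52 to 0.43 for Syt1 and -0.36 to 0.30 for Stmn2. Also between fractions, the sign turned within AAV-A2A for Syt1 (1.66), Camk2a (0.55), Stmn2 (0.97) and Rbfox3 (0.55), and within AAV-GFP for Nrgn (-1.35) and Nos1ap (0.50). Without the Ttr-rich libraries it turned for Syt1 (1.15), Slc17a7 (0.50) and Camk2a (0.47), and Stmn2 came to 0.02 with DESeq2 and with total counts, 0.03 with RLE factors and 0.04 with at least 10 counts. The cause was not tested.

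In ACSA-2, Pclo kept its sign but lost its call in the fits without each library except GFP-307 (0.0515 to 0.0793) and on all 12 libraries (0.839), and so did Gria2 without each library except A2A-313 (0.0613 to 0.186), with total counts (0.0505) and on all 12 libraries (0.608). Members with fewer than 100 counts in most libraries, such as Rbfox3 and Syt1, are limited by depth as well as by spread.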
